A study of Mus musculus with 3 samples.

Results

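Endothelial genes were followed in the hearts of Rbm20 knock-in mice. The list holds 35 genes that mark the cells lining blood vessels and heart chambers, and its members were chosen by gene symbol: 22 genes used by most endothelial cells, 3 genes of capillary cells, 6 of arterial cells and 4 of venous or endocardial cells. Of these, 32 were found under their own symbol among 52071 genes. The other 3, Egfl7, Nrp1 and Ramp2, lie in units in which the table merges overlapping genes. They were read from the exonic parts that belong to them alone in the GENCODE M21 annotation. All 32 passed the filter of a mean of at least 1 CPM (reads per 1000000 inclusion reads of the library), as did 12862 genes in all.

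The mice carried the I538T change in Rbm20, a splicing factor of heart muscle, brought into the germline of C57BL/6 mice by CRISPR/Cas9. Wild-type, heterozygote and homozygote hearts at 12 weeks of age gave 1 library each, made from total RNA of the heart and called representative by the submitters. With 1 library per genotype, a difference between genotypes cannot be told apart from a difference between mice or preparations. The labels do not give the sex of the mice or say how many stand behind a library.

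The endothelium makes vascular endothelial growth factor (VEGF) receptors, angiopoietin receptors and Notch receptors, through which vessels grow, stay closed and become arteries or veins. Cells are joined by VE-cadherin, Pecam1 and claudin 5. Capillary cells of the heart take up fatty acids. Arterial cells use the Notch ligand Dll4 and its targets of the Hey family. Venous and endocardial cells store von Willebrand factor or make receptors such as Aplnr.

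Gene levels were inclusion reads scaled to all inclusion reads of the library (CPM), summed over the exonic parts of a gene. Genotypes were compared as the log2 ratio of CPM + 1, and a member was counted as higher or lower when this ratio reached 0.5 in either direction. Intervals are given at the 95% level and cover counting error only. PCR reads are not independent molecules and a read over several parts is counted in each, so these intervals are narrow, and no test between genotypes was possible. Where 3 values of a gene stand together, they follow the order wild-type, heterozygote, homozygote. The libraries held 149633524, 157178099 and 157990953 inclusion reads. The least read member, Erg, had 392, 348 and 396 reads.

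The tissue label was checked first. Cardiomyocyte markers summed to 57810, 64793 and 62811 CPM. The libraries differed in other cell types. Of 19 small intestine markers found, 13 had a wild-type level of 3 times or more that of either mutant. Of all 12862 genes tested, 36 did. Fabp2, Apoa4 and Reg3b were at 0 reads in both mutants. The interval for 0 reads runs up to 0.0235 CPM in the heterozygote and 0.0233 CPM in the homozygote. The 5 blood genes summed to 86119, 31993 and 107317 CPM, lowest in the heterozygote. Of 9 immune markers measured, 8 were past the size rule in the homozygote, all below the wild-type, beside 7.48% of all genes. In the heterozygote 2 were higher (Adgre1 and Ly6c2) and 0 were lower, beside 2.32% and 4.51% of all genes. The part of these differences in the endothelial values was not tested.

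Few members reached the size of 0.5, and those that did were mostly venous genes, an arterial gene and the peptide apelin. In the homozygote against the wild-type, 0 members were higher and 3 were lower (Apln, Plvap and Aplnr), beside 1.9% and 7.48% of all genes. In the heterozygote, 1 was higher (Hey1) and 3 were lower (Vwf, Plvap and Aplnr), beside 2.32% and 4.51% of all genes. In the homozygote against the heterozygote, 0 were higher and 2 were lower (Apln and Hey1), beside 2.22% and 5.08%. This last comparison shares its libraries with the others. No member reached a log2 ratio of 1, which 1.62%, 1.04% and 0.972% of all genes passed in these comparisons, in the order given. Over the 32 members the median log2 ratio was -0.06 for the homozygote and 0.03 for the heterozygote, and over all genes tested it was -0.08 and 0.01.

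**Figure D1:**
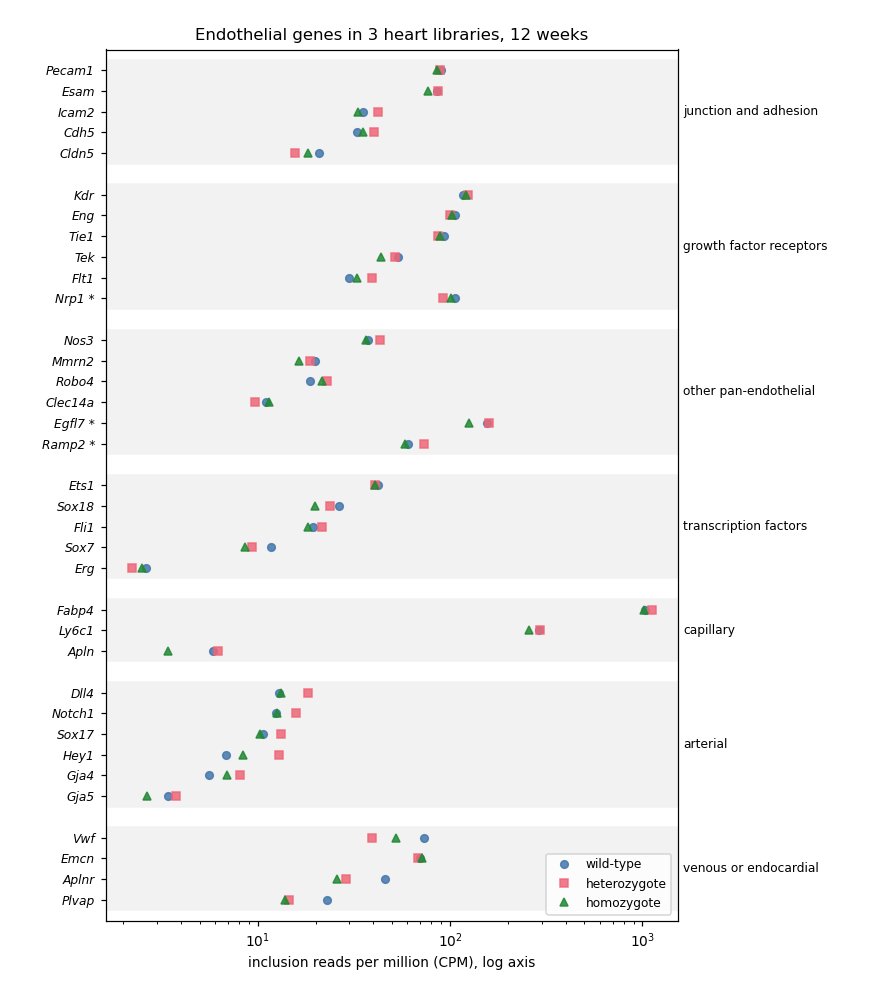
Level of each endothelial gene in CPM (log axis), by role, with 1 point per library: circles for the wild-type, squares for the heterozygote and triangles for the homozygote. Genes with an asterisk were read from parts of merged units. Fabp4 sits between 1025 and 1116 CPM, and Plvap and Aplnr are higher in the wild-type than in both mutants.

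The general endothelial genes stayed close to the wild-type. Of 22 listed, 19 were found under their own symbol, and 0 reached the size rule in any of the 3 comparisons. Their median log2 ratio was -0.06 in the homozygote and -0.04 in the heterozygote. In bulk tissue, fewer cells of a type and less RNA per cell cannot be told apart.

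Genes of junctions and adhesion came first. Pecam1, an adhesion molecule of endothelial contacts and platelets, was at 89.8, 88.4 and 86.0 CPM. Cdh5, which encodes VE-cadherin, was at 32.8, 40.1 and 35.1 CPM. Esam, a tight junction adhesion molecule, was at 85.3, 86.5 and 77.2 CPM. These values lay close together, with log2 ratios to the wild-type from -0.14 to 0.28. Icam2, a ligand of leukocyte integrins, was at 35.3, 42.2 and 33.3 CPM. Cldn5, the claudin of endothelial tight junctions, was at 20.8, 15.7 and 18.2 CPM. Cldn5 was lower in both mutants, with a log2 ratio of -0.39 (-0.46 to -0.31) in the heterozygote and -0.18 (-0.25 to -0.11) in the homozygote.

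Receptors for growth factors varied as little. Kdr, the main signalling receptor for VEGF, was at 117, 124 and 120 CPM. Flt1, a VEGF receptor that also has a soluble form, was at 29.9, 39.5 and 32.9 CPM. Nrp1, a co-receptor for VEGF and semaphorins, was at 107, 92.3 and 101 CPM. Flt1 was highest and Nrp1 lowest in the heterozygote. Tek, the angiopoietin receptor also called Tie2, was at 53.6, 52.0 and 44.0 CPM, and its partner Tie1 at 93.5, 87.0 and 88.6 CPM. Eng, a co-receptor for BMP9 and TGF-β, was at 106, 100.3 and 102 CPM. Among these receptors, Tek was the farthest from its wild-type level in homozygote tissue, at -0.28 (-0.33 to -0.23).

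Ligands and partners of these receptors were measured as well. Vegfa, the main ligand of Kdr, was at 93.7, 98.1 and 95.7 CPM, and Vegfb, a ligand of Flt1, at 249, 262 and 219 CPM. Pgf, another ligand of Flt1, was at 5.66, 8.89 and 5.11 CPM. Pgf was highest in the heterozygote, with a log2 ratio of 0.57. Angpt1, which activates Tek, was at 14.2, 12.4 and 11.1 CPM, and Angpt2, which mostly opposes it, at 3.18, 3.58 and 3.26 CPM. Acvrl1, the BMP9 receptor that works with Eng, was at 37.5, 39.8 and 38.0 CPM. Of 17 ligands and partners with at least 1 CPM, 0 passed the size rule for the homozygote, and for the heterozygote 1 was higher (Pgf) and 1 was lower (Dll1).

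Other genes of most endothelial cells included Nos3, which makes nitric oxide, at 37.5, 43.5 and 36.6 CPM. Egfl7, a secreted protein of the vessel wall, was at 155, 160 and 126 CPM. Ramp2, which turns the calcitonin-like receptor Calcrl into an adrenomedullin receptor, was at 60.4, 72.9 and 58.5 CPM. Nos3 and Ramp2 were highest in the heterozygote, and Egfl7 was lowest in the homozygote at -0.30 (-0.33 to -0.27). Robo4, a guidance receptor of vessels, was at 18.8, 22.8 and 21.5 CPM. Mmrn2, a matrix protein that binds VEGF and Clec14a, was at 19.9, 18.7 and 16.5 CPM, and Clec14a itself at 11.1, 9.68 and 11.4 CPM. None of these 6 genes reached the size rule on its summed reads.

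Transcription factors of the endothelium were the group of general genes with the most values below the wild-type. Sox18, a factor of vessel and lymphatic development, was at 26.4, 23.8 and 19.8 CPM. Sox7, of the same SoxF family, was at 11.7, 9.32 and 8.60 CPM. Both had their highest level in the wild-type. The homozygote's log2 ratios were -0.40 and -0.41, short of the size rule. The ETS factors moved less. Ets1 was at 42.3, 40.6 and 40.6 CPM, Fli1 at 19.3, 21.5 and 18.2 CPM and Erg at 2.62, 2.21 and 2.51 CPM.

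**Figure D2:**
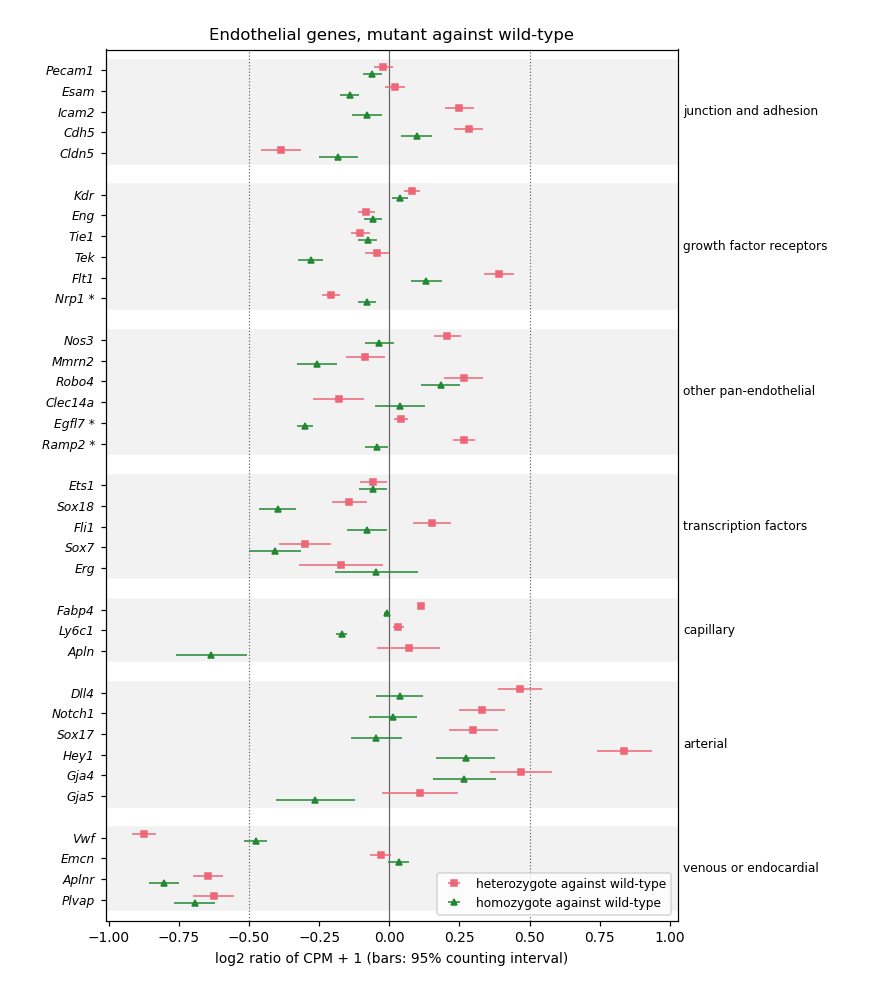
Log2 ratio of CPM + 1 of each endothelial gene in the heterozygote (squares) and the homozygote (triangles) against the wild-type, by role, with 95% counting intervals as bars. Solid line, no difference; dotted lines, the size rule of 0.5. The arterial genes Hey1, Gja4, Dll4, Notch1 and Sox17 lie to the right in the heterozygote, and Vwf, Aplnr and Plvap lie to the left in both mutants.

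Capillary, arterial and venous or endocardial genes were then set side by side. The 4 venous or endocardial genes had medians of -0.58 for the homozygote and -0.64 for the heterozygote. The 6 arterial genes had medians of 0.03 and 0.40, and the 3 capillary genes -0.17 and 0.07. These groups are small, and no test between them was made.

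The venous or endocardial group held the lowest ratios. Aplnr, the receptor for apelin found on veins and endocardium, was at 45.8, 28.9 and 25.8 CPM. It was highest in the wild-type, and its log2 ratio was -0.65 (-0.70 to -0.59) in the heterozygote and -0.80 (-0.86 to -0.75) in the homozygote. Plvap, which forms the diaphragms of fenestrae and caveolae, was at 23.0, 14.6 and 13.9 CPM. The mutants were close to each other, at -0.63 (-0.70 to -0.55) and -0.69 (-0.77 to -0.62) against the wild-type.

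Vwf, which encodes the von Willebrand factor that captures platelets, was at 73.2, 39.5 and 52.4 CPM. It was lowest in the heterozygote, at -0.87 (-0.92 to -0.83), and at -0.48 (-0.52 to -0.44) in the homozygote, just short of the size rule. The fourth gene did not follow. Emcn, a sialomucin of veins, capillaries and endocardium, was at 70.0, 68.6 and 71.7 CPM.

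Markers of other tissues were set beside these 3 genes. The small intestine list, whose cells are no part of the heart, summed to 154, 120 and 53.2 CPM, and its enterocyte gene Fabp1 was at 11.2, 0 and 0.08 CPM. The atrial marker Myl7 was at 3.21, 1.65 and 1.20 CPM and Myl4 at 2.63, 2.47 and 1.84 CPM, while Nppa, also of the atrium, was at 83.1, 126 and 157 CPM. The other 2 atrial markers were near 0, with Sln at 0.17, 0.04 and 0.06 CPM and Bmp10 at 0.04, 0 and 0 CPM. Of the 5 atrial markers, 4 (all but Nppa) were highest in the wild-type, as Aplnr, Plvap and Vwf were. So were 16 of the 19 intestinal genes found. The same held for 5152 of the 12862 genes tested. The other 3 intestinal genes were not highest there. Lgals4 (51.5, 56.7 and 25.3 CPM) and Lyz1 (44.6, 55.9 and 19.7 CPM), which make up most of the sum, were highest in the heterozygote, and Anpep (3.91, 2.30 and 4.21 CPM) in the homozygote. Their part in the result was not tested.

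Other genes of veins and endocardium were closer to the wild-type. Of 8 with at least 1 CPM, 0 passed the rule for the homozygote and 1, Npr3, was lower in the heterozygote, at 7.91, 5.08 and 5.74 CPM. The median was -0.21 in the homozygote and -0.05 in the heterozygote. Ephb4, the ephrin receptor that marks veins, was at 45.8, 43.0 and 43.2 CPM. Nr2f2, the factor that gives venous identity, was at 3.59, 4.77 and 4.25 CPM.

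Lymphatic endothelium was described by 6 genes, with a median of -0.16 in the homozygote and -0.39 in the heterozygote. Mmrn1, a storage protein of lymphatic cells and platelets, was at 4.92, 2.59 and 7.59 CPM. It was past the size rule in both mutants and in opposite directions. Ccl21a, a chemokine of lymphatic vessels, was at 76.0, 49.7 and 69.5 CPM, but it belongs to a family of near-identical copies and its reads are uncertain.

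All 6 arterial members had their highest level in the heterozygote, but only Hey1 reached the size rule. Over the 32 members 17 were highest in the heterozygote, the 3 capillary genes among them. Over all 12862 genes tested 5396 were. The 10 further arterial genes had a median log2 ratio of -0.09 in the heterozygote, with 4 above 0. Hey1, a repressor that Notch switches on, was at 6.82, 13.0 and 8.44 CPM. It was highest in the heterozygote, with a log2 ratio of 0.84 (0.74 to 0.93), against 0.27 (0.17 to 0.38) in the homozygote. Dll4, the Notch ligand of arteries and sprouting tips, was at 12.9, 18.2 and 13.3 CPM. Gja4, the gap junction protein connexin 37, was at 5.57, 8.10 and 6.91 CPM. Both were highest in the heterozygote, at 0.46 and 0.47, just under the size rule.

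Notch1, the receptor of Dll4, was at 12.5, 15.9 and 12.6 CPM. Sox17, a SoxF factor of arteries, was at 10.6, 13.3 and 10.2 CPM. Gja5, connexin 40, which atrial muscle and the conduction system also make, was at 3.41, 3.76 and 2.67 CPM. In the homozygote, Notch1 and Sox17 were at the wild-type level and Gja5 was below it, at -0.26 (-0.40 to -0.12).

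Further Notch genes went in both directions. Notch4, the endothelial Notch receptor, was at 14.6, 19.9 and 17.1 CPM. Heyl, another Hey family gene, was at 17.8, 18.5 and 18.4 CPM, and Rbpj, the DNA-binding partner of Notch, had log2 ratios of -0.13 and -0.11 in the mutants. Only Notch4 of these was higher in the heterozygote by more than 0.4. Dll1, a Notch ligand, was at 7.06, 4.35 and 4.87 CPM and Jag2, another, at 21.8, 21.7 and 16.1 CPM. Dll1 was past the size rule in the heterozygote, at -0.59, and had a log2 ratio of -0.46 in the homozygote, where Jag2 was at -0.42. Of 10 further arterial genes, 0 were past the size rule in the heterozygote and 1, Bmx, was lower in the homozygote. Bmx, a kinase of arterial endothelium and endocardium, was at 4.93, 3.44 and 1.59 CPM, a log2 ratio of -1.20 in the homozygote.

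Smooth muscle genes also stood higher in the mutants. Of 10 markers of smooth muscle and pericytes, 4 were higher past the size rule in each mutant (Acta2, Myh11, Tagln and Cnn1). Over all genes 1.9% were in the homozygote and 2.32% in the heterozygote. Acta2, smooth muscle actin, was at 33.9, 84.2 and 58.5 CPM. The list summed to 337, 448 and 376 CPM, highest in the heterozygote as the 6 arterial members were. Pericyte markers stayed under the size rule, with Kcnj8 at 52.1, 57.1 and 55.9 CPM and Rgs5 at 112, 136 and 114 CPM. Cspg4 was at 5.21, 7.11 and 7.04 CPM. Abcc9 and Pdgfrb were below the wild-type in the homozygote, at log2 ratios of -0.12 and -0.09. The part of larger vessels in the arterial values was not tested.

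Capillary genes differed among themselves. Fabp4, a fatty acid carrier of heart capillaries and of fat, was at 1032, 1116 and 1025 CPM. Adipocyte markers were all under 1 CPM in each library. Ly6c1, a surface protein of capillary cells, was at 288, 295 and 256 CPM. Both genes were within 0.2 of the wild-type. Apln, which encodes the peptide apelin, was at 5.87, 6.21 and 3.43 CPM. Apln was lowest in the homozygote, at -0.63 (-0.76 to -0.51), while its log2 ratio in the heterozygote was 0.07 (-0.04 to 0.18).

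Further capillary genes stayed near the wild-type, with medians of 0.06 and 0.05. Of 10 genes, 1 was past the size rule in the homozygote, Rgcc, a cell cycle regulator, at 80.9, 95.7 and 120.1 CPM. Cd36, the fatty acid transporter, was at 934, 987 and 1042 CPM, and Gpihbp1, which anchors lipoprotein lipase on capillaries, at 137, 164 and 162 CPM.

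Levels of different genes were compared per length, as the median over nearly always included parts of reads per 1000 possible read positions, scaled like CPM to the library total. Fabp4 was highest on this scale, at 618, 663 and 615, and Ly6c1 was the next, at 155, 189 and 165. Esam, Emcn and Eng came after them, with 20.4 to 23.9 in the wild-type. Gja5 had the lowest level in the wild-type and the homozygote, at 0.51, 0.66 and 0.41, and Erg (0.83, 0.57 and 0.56) in the heterozygote.

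The ratios were then followed along the genes, part by part, over exonic parts with a PSI of at least 90% in all libraries and at least 60 reads. PSI, the percentage spliced in, is the share of reads that include a part, after division by the possible read positions. All 6 parts of Plvap and all 4 of Aplnr were lower in both mutants than in the wild-type. All 7 parts of Hey1 were higher in the heterozygote, from 0.49 to 1.29. The other arterial genes were less even. In the heterozygote all 13 parts of Dll4 were higher, 30 of 37 of Notch1, 7 of 10 of Sox17 and 4 of 5 of Gja5. The 2 parts of Gja4 went in opposite directions there, at -0.16 and 0.57. All 3 parts of Apln were lower in the homozygote, from -0.90 to -0.72. Mmrn2, at -0.26 in the homozygote on its summed reads, was lower there in all 9 parts, with a median of -0.56. The median was -0.58 nearer its 5′ end and -0.0025 nearer its 3′ end. In the heterozygote these were -0.43 and 0.05.

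Vwf was uneven. In the annotated transcript with the most exons (GRCm38, chromosome 6, plus strand, 52 exons), exons 2 to 43 held 56.8, 26.5 and 34.7 CPM. Exons 44 to 52 held 14.7, 12.1 and 16.8 CPM. The longer stretch was lower in both mutants in all of its 48 parts, with log2 ratios of -1.07 (-1.12 to -1.02) and -0.70 (-0.74 to -0.65). At the 3′ end the homozygote was above the wild-type, at 0.17 (0.10 to 0.25), and the heterozygote was below it, at -0.26 (-0.35 to -0.18).

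This division was chosen after the Vwf values had been seen. A contrast tried first, the parts nearer the 5′ end of a gene minus those nearer the 3′ end, gave Vwf -0.46 in the homozygote and -0.11 in the heterozygote, and 6.13% and 7.31% of 8126 genes with at least 6 parts were at -0.5 or below. On that contrast Vwf did not reach this size. The last 10 parts minus the others, shaped on Vwf, gave 0.95 and 0.81, and 3.78% and 4.11% of 608 genes with at least 30 parts were at 0.5 or above. The second contrast was fitted to this gene, so these shares describe it and lend it no support. The order of the genotypes for Vwf therefore depends on the stretch that is read.

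**Figure D3:**
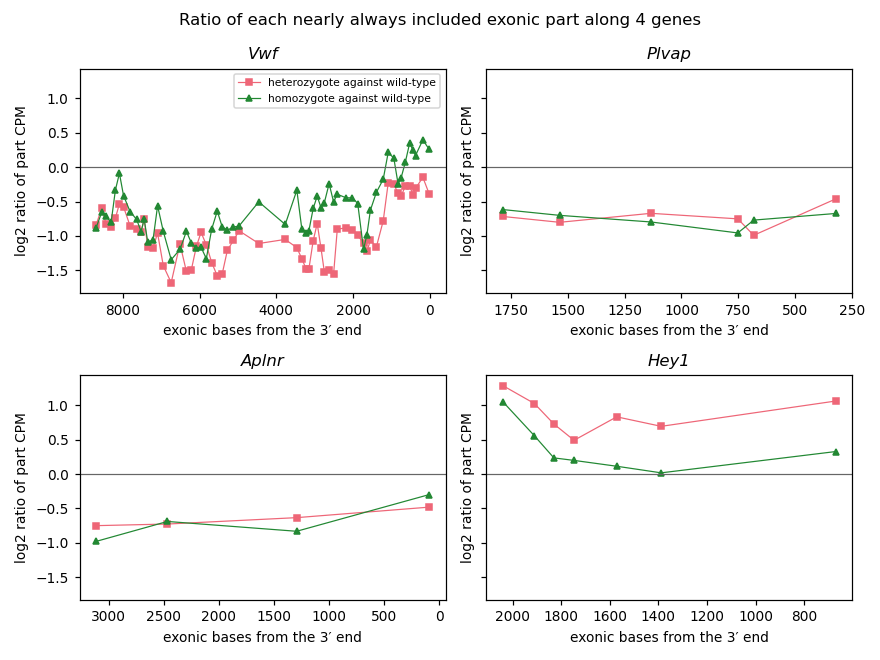
Log2 ratio of part CPM for each nearly always included exonic part of Vwf, Plvap, Aplnr and Hey1, plotted against exonic bases from the 3′ end (5′ end on the left), for the heterozygote (squares) and the homozygote (triangles) against the wild-type. Plvap and Aplnr lie below 0 and Hey1 above 0 throughout, while the Vwf ratios of the homozygote rise above 0 at the 3′ end.

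Ly6c1 also differed along its length. Its summed reads gave a log2 ratio of -0.17 in the homozygote and 0.03 in the heterozygote. Over its 7 nearly always included parts the medians were 0.10 and 0.32. Of these parts, 5 were higher and 2 lower in the homozygote. Its longest annotated first exon of the main start site (chr15:75048785-75048830, minus strand, 5′ UTR) is split into 5 parts. The 4 bases next to the splice site had 13.7, 5.40 and 4.60 CPM. A 307 bp part at the other end of the gene had 39.8, 49.8 and 46.7 CPM. The 4 parts nearest the splice site were highest, and the 3′ part lowest, in the wild-type library, while the 17 bases at the far 5′ end had 0.51, 0.74 and 0.53 CPM, lowest in the wild-type. A contrast of the 5′-most well-read part with the median part of 10148 genes gave Ly6c1 -0.64 and -0.63, under the size of 1 that 3.09% and 3.1% of genes reached downwards; it leaves out the first exon, whose PSI is under 90% in the homozygote. Ly6c1 has close relatives, and reads shared with them make these values uncertain.

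Splicing of the 32 endothelial genes found under their own symbol was mostly fixed. Of 609 exonic parts of the 32 genes, 516 had at least 20 reads in each library. Of these, 431 (83.5%) were nearly always included (PSI of at least 90%), 53 were nearly always skipped (PSI of at most 10%) and 32 (6.2%), in 13 genes, were variable. Over all exonic parts 72.7% were nearly always included and 10.5% were variable. The 3 merged genes lay on the other side of these shares. Of their 83 parts with at least 20 reads in each library, 61.4% were nearly always included. Another 15 (18.1%), in 2 genes, were variable.

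The variable exons that keep or shift the reading frame are shown from the annotated transcripts, since they are the forms that each library mixes. The sequences run 5′ to 3′ along the spliced transcript (GENCODE M21, GRCm38), with the variable bases in capitals and 12 bases of the neighbouring transcript on each side in lower case. The first 3 are whole exons 12, 14 and 15 of a Pecam1 transcript with 16 exons (minus strand) and encode parts of its cytoplasmic tail. The 54 bp exon lies at chr11:106681032-106681085, the 57 bp exon at chr11:106671742-106671798 and the 23 bp exon at chr11:106662002-106662024.
Pecam1 exon 12: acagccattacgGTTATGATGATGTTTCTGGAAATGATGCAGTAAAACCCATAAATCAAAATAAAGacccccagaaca
Pecam1 exon 14: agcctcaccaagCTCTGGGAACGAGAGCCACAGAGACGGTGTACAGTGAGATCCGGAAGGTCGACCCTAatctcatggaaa
Pecam1 exon 15: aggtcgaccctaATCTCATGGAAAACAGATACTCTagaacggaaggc

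In Pecam1, the 54 bp exon had a PSI of 85.0%, 81.7% and 81.9%. The 57 bp exon was at 63.0%, 56.6% and 58.7%. The 23 bp exon, whose length is not a multiple of 3, was at 41.6% (36.2 to 47.2), 40.1% (35.1 to 45.2) and 29.0% (24.3 to 34.2). It was lowest in the homozygote, at a difference of -12.6 points (-19.9 to -5.2) from the wild-type, which is short of the size rule of 20 points. Of these 3 exons, inclusion was highest for exon 12 and lowest for exon 15 in every library.

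The next are a whole exon of Emcn at chr3:137403984-137404022, and parts of exons where a splice site can shift: 21 bp at the start of an exon of Robo4 (chr9:37410679-37410699), 3 bp at the end of an exon of Tek (chr4:94851875-94851877) and 3 bp at the start of an exon of Eng (chr2:32657516-32657518), all coding and on the plus strand. Each keeps the reading frame.
Emcn exon 5: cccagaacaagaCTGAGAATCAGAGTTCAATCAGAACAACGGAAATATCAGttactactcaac
Robo4 exon 14: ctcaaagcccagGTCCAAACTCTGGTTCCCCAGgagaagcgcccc
Tek exon 14: gcattccagaacGTGagagaagaacca
Eng exon 2: ttgtacccacaaCAGgtctcgcagaaa

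The Emcn exon had a PSI of 93.9%, 88.5% and 92.5%. The 21 bp of Robo4 were at 55.3%, 56.5% and 45.0%. These 2 exons differed by less than 12 points between any libraries. The 3 bp of Tek were at 63.4% (55.7 to 70.6), 47.3% (39.0 to 55.8) and 53.3% (44.7 to 61.8). The 3 bp of Eng were at 76.6%, 81.4% and 81.4%. Tek was lowest in the heterozygote, at a difference of -16.1 points (-27.1 to -4.6) from the wild-type.

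Flt1 has a short form that ends inside an intron of the long form. A 4066 bp part of the last exon of an annotated short form had a PSI of 59.1% (45.1 to 73.8), 42.6% (34.3 to 52.2) and 57.7% (45.5 to 70.6). It rests on 12, 32 and 16 exclusion reads, and the intervals overlap.

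Parts past 20 points were rare among the 32 genes found under their own symbol. For the homozygote against the wild-type, 1 part was higher and 1 was lower, beside 0.799% and 0.709% of all parts tested. In the heterozygote against the wild-type 0 were higher and 2 were lower, beside 0.88% and 0.699%. In the homozygote against the heterozygote 1 was higher and 1 lower, beside 0.738% and 0.787%.

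These 4 parts lie at or near the start of a transcript. A 114 bp part in the 5′ UTR of a Sox17 transcript (chr1:4493491-4493604, minus strand) was at 70.2% (50.4 to 86.3), 66.6% (53.1 to 78.7) and 100% (86.7 to 100). It was highest in the homozygote, which had 0 exclusion reads beside 47 inclusion reads. The 17 bp at the far 5′ end of Ly6c1 (chr15:75048814-75048830) were at 78.9%, 92.0% and 46.6%. They were lowest in the homozygote, at a difference of -32.2 points from the wild-type, with the caution on related genes given above.

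A 405 bp first exon of Fli1 (chr9:32541191-32541595, minus strand) was at 100%, 70.9% and 83.4%. It had 0, 20 and 8 exclusion reads, fewest in the wild-type. The first 27 bp of an Ets1 exon (chr9:32696022-32696048, plus strand, 5′ UTR) were at 69.3%, 46.9% and 53.7%. The next 72 bp of that exon were at 83.2%, 68.1% and 69.8%. The intervals of the 27 bp part run from 52.4 to 83.3 in the wild-type and from 29.0 to 65.7 in the heterozygote, and they overlap.

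Among the merged genes, a 26 bp part at the start of a retained-intron transcript of Nrp1 (chr8:128359073-128359098) was at 58.6%, 4.3% and 43.4%, from 27, 39 and 25 reads. It was the only part of the 3 merged genes past 20 points, at a difference of -54.3 points (-73.6 to -31.1) of the heterozygote from the wild-type and of 39.1 points (17.3 to 60.6) of the homozygote from the heterozygote. A 29 bp part of Egfl7 (chr2:26592118-26592146), read deeply, was at 89.8% (87.7 to 91.6), 94.6% (93.0 to 95.9) and 99.6% (98.8 to 99.9). The Egfl7 part was lowest in the wild-type, and the homozygote was 9.8 points above it.

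**Figure D4:**
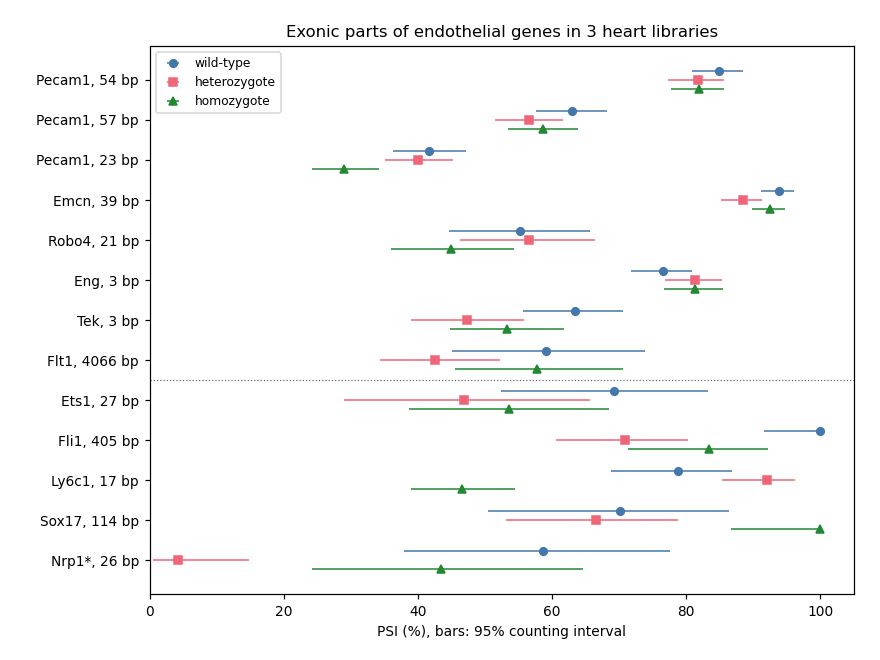
PSI in percent of exonic parts of endothelial genes in the wild-type (circles), heterozygote (squares) and homozygote (triangles), with 95% counting intervals as bars. Above the dotted line are variable exons under the 20 point rule, such as the 23 bp exon of Pecam1 at 41.6%, 40.1% and 29.0%; below it are the 5 parts past the rule in a comparison, with wide intervals (asterisk, Nrp1 from a merged unit).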

How the data were processed

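Total RNA of mouse hearts was made into libraries with SMART-seq v4 and Nextera XT kits, which do not mark strand, and sequenced on a NovaSeq 6000. Per the submitters' notes, reads were processed with cutadapt 1.1, Trimmomatic 0.32, TopHat2 2.0.14 and Bowtie 1.1.1 on GRCm38. The counting program and annotation release are not given in the sources used here. For each of 469293 exonic parts the authors deposited unnormalized counts (reads that include and reads that skip the part) and a PSI fraction. The deposited PSI matched counts divided by possible read positions with 129 junction positions, to within 5e-05 points. The authors' columns of differences in PSI between wild-type and mutants were not used, nor were 3 PSI columns labelled with a later age. Of the exonic parts, 40250 are in merged units of overlapping genes, with 12.1% to 13.2% of inclusion reads.

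Counts were scaled to all inclusion reads of a library. Read intervals are exact Poisson, PSI intervals exact Clopper-Pearson carried to the PSI scale, and both were combined for differences. PSI calls needed 20 reads in both libraries and 20 points. Every member is named, as are parts past the size rule; other variable parts are named as examples. Members and lists were chosen with earlier results of these data known. The merged genes, the single genes followed across settings, the Vwf and Ly6c1 contrasts and the total without blood genes were chosen after values were seen. Computation used Python 3.11.15, numpy 2.4.6, pandas 2.3.3, scipy 1.17.1 and matplotlib 3.10.9, and functions were tested on simulated data.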

Additional observations from a re-analysis of the deposited data

How the results depend on the processing

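No paired analysis was possible because each genotype has 1 library, and for the same reason no library could be left out. Median-of-ratios scaling moved the median of all genes from -0.08 to 0.04 in the homozygote against the wild-type and from -0.10 to 0.01 against the heterozygote. With it, the median of the members became 0.071 (from -0.06) and -0.052 (from -0.17). Without the 20 genes with the most reads and mitochondrial genes, the median was -0.041 (from 0.03) in the heterozygote against the wild-type and -0.075 in the homozygote against the heterozygote. Without blood genes, chosen after seeing the data, these were -0.056 and -0.054. A size rule of 1 left 0 members in each comparison. With median-of-ratios scaling, the capillary, arterial and venous or endocardial medians became -0.03, 0.16 and -0.45 in the homozygote against the wild-type. In the heterozygote they were 0.09, 0.42 and -0.61. With only parts of a PSI of at least 90%, the capillary median in the homozygote was -0.01 (from -0.17).

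Apln, Plvap and Aplnr passed in the homozygote, and Hey1, Vwf, Plvap and Aplnr in the heterozygote, under every alternative except the size rule of 1. A pseudocount of 0.1 added Gja4 in the heterozygote. Shared parts were counted by adding Egfl7, Nrp1 and Ramp2 from the parts of merged units that belong to them alone; parts common to overlapping genes were not assigned, and no call changed. In the homozygote against the heterozygote, 1 member, Apln, remained without the 20 top genes and mitochondrial genes, and Vwf (0.51) took the place of Hey1 (-0.46) both with median-of-ratios scaling and without blood genes. For 12 members, 56 of 288 single values moved by more than their counting interval and 0 changed direction among those past 0.5. The settings on the filter and on added merged genes cannot change a gene's own ratio. Their single values were the same by construction and say nothing about stability.

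At 10 points, 17 of 520 tested parts passed in the homozygote against the wild-type and 10 of 527 in the heterozygote. In the homozygote against the heterozygote 13 of 526 did. At 50 reads 1 passed in each, and PSI from counts alone gave 4 in the last comparison. Shares over all exonic parts were not computed for these settings, so the counts are not read as a result about the members. The cause of these changes was not tested. Depth limits PSI of parts with few exclusion reads.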
